A study of Mus musculus with 8 samples.

Results

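The genes described here are those of blood coagulation and complement that the liver makes or uses: the clotting factors and fibrinogen chains, the inhibitors of clotting, the plasminogen system, and the complement proteins with their regulators. They were taken as a list of 40 named genes, chosen by function. Of these, 39 were tested, among 17790 genes in all, and C3 was not analysed here because no probe set carried its symbol alone. The 39 genes were represented by 56 of the 45101 probe sets of the array.

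Livers of 8-week-old BALB/c mice that had received a recombinant adenovirus (rAd.) were profiled on an Affymetrix mouse genome array, with 8 arrays in all and the pooled RNA of 3 mice on each. There were 4 groups of 2 arrays. Post-A20 livers carried the vector for human A20, a ubiquitin-editing inhibitor of NF-κB signalling, and were taken 24 h after a 78% resection, which removes most of the lobes and starts regeneration of the remnant. Pre-A20 livers were the resected lobes of rAd.A20 animals, 5 days after the vector was given. Post-βgal and pre-βgal livers were the corresponding remnant and resected lobes of animals given the vector for β-galactosidase (βgal), which serves as the control transgene, so that every group had received adenovirus. The vector reaches only part of the hepatocytes, so each array mixes transduced and other cells. The titles and source names assign the arrays to these groups, while the treatment text given for both post-A20 samples speaks of βgal. The comparisons ask how these genes differed after against before resection with each transgene, and how A20 livers differed from βgal livers before and after resection. No group was operated on without resection. Resection therefore cannot be told apart from surgery, from the lobe taken, or from the 24 h more after the vector.

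Coagulation is a cascade of serine proteases that ends with thrombin cutting fibrinogen into fibrin. It can start from tissue factor with factor VII, or from contact activation, in which factor XII, plasma prekallikrein and kininogen activate factor XI. Serpins, protein C and tissue factor pathway inhibitor restrain it, and plasmin dissolves the clot. Complement is a second protease cascade in plasma, in which the lectin, classical and alternative pathways converge on C3 convertases, and the terminal components assemble the membrane attack complex. Hepatocytes are the main source of most of these proteins, and several of them, fibrinogen among them, are acute phase proteins induced by interleukin-6.

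The hepatocyte markers were present on every array, with summed signals of their 6 genes of 84620 to 90456 in post-A20 livers, 81963 to 83958 in pre-A20 livers, 84411 to 85894 in post-βgal livers and 78673 to 81479 in pre-βgal livers, and none of the 6 was called in any of the 7 comparisons, although Tat was at 1.20 with resection in βgal livers (adjusted p = 0.158) and at 0.91 in A20 against βgal livers before resection. In bulk liver, fewer cells of a type and less RNA per cell cannot be told apart. For the β-actin controls, the 3′ signal over the 5′ signal, a measure of RNA integrity, was 3.64 in post-βgal replicate 1 and 6.997 in pre-βgal replicate 1, and lay between 1.27 and 1.62 on the other arrays. Mouse Tnfaip3, the gene of endogenous A20, had signals of 472 and 202 in post-A20, 170 and 162 in pre-A20, 366 and 531 in post-βgal and 927 and 574 in pre-βgal livers. Its probe sets read the mouse transcript and do not check the human transgene. Each replicate is 1 pool, p-values measure only the spread between these arrays, and the small number of arrays, 2 in a group, limits the precision. Signals are in linear units as deposited. Fold changes are on the log2(signal + 16) scale, which understates changes at low signal, and a gene is called where limma's adjusted p (Benjamini-Hochberg over the 17790 genes) was under 0.05.

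The plot of all 39 genes by array shows how unevenly the genes of these cascades behaved. Most were at high signal: 33 had a mean over 1000 and only 3 (F3, Tfpi and Plau) had one under 200. Their replicates were about as close as those of other genes in post-A20, pre-A20 and post-βgal livers, with median absolute log2 differences of 0.15, 0.13 and 0.12 for the 39 genes against 0.12, 0.14 and 0.13 for all genes. In pre-βgal livers the replicates were farther apart, at 0.26 for the 39 genes and 0.19 for all genes, and 9 of the 39 differed by over 0.5 there.

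**Figure D1:**
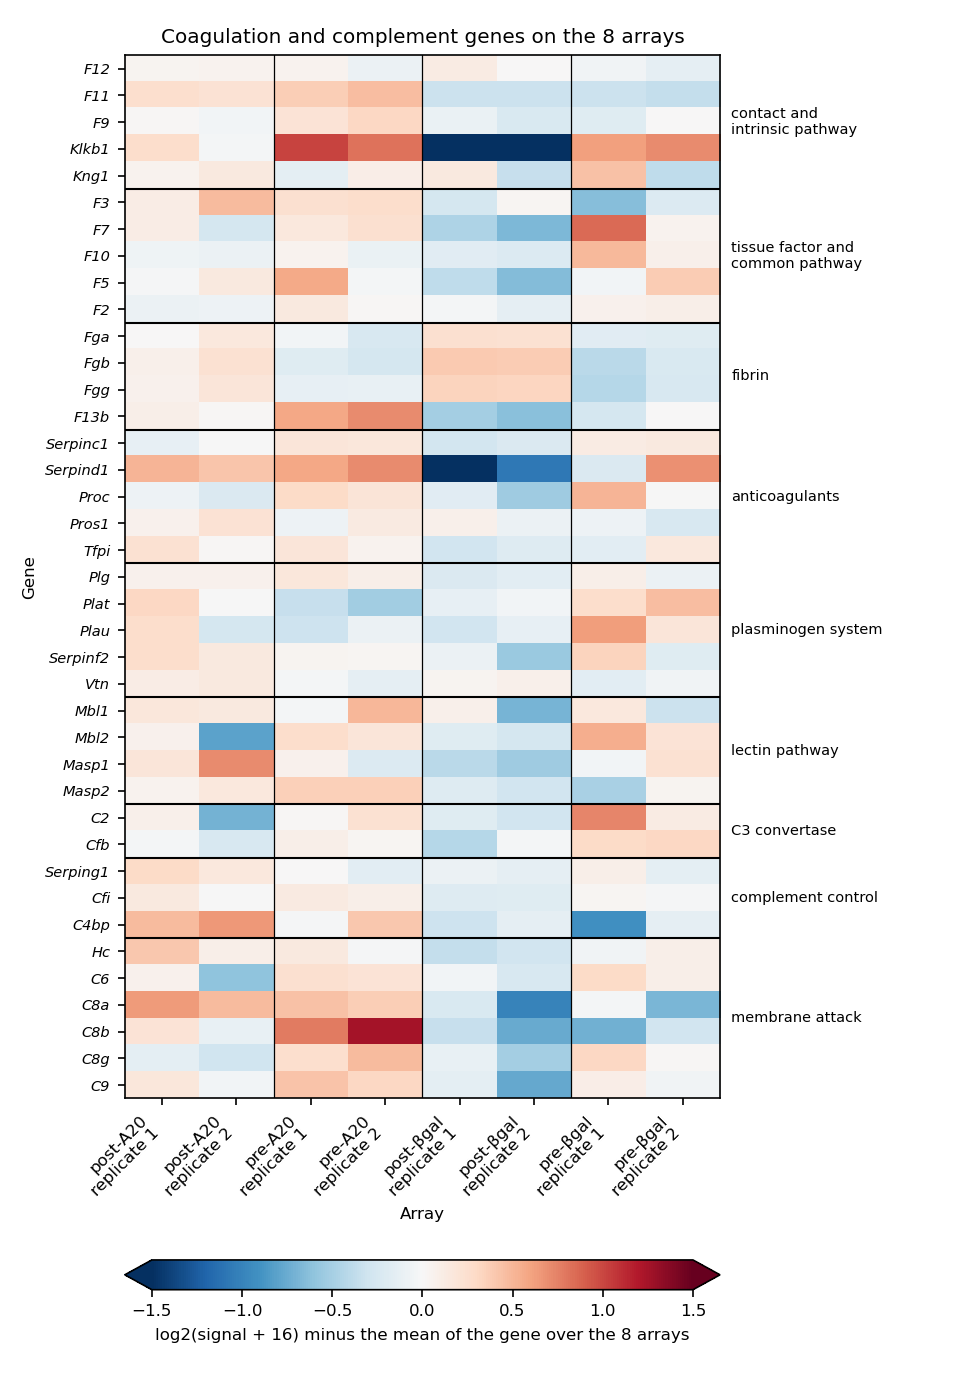
Heat map of log2(signal + 16) of the 39 coagulation and complement genes on the 8 arrays (columns, 2 replicates per group), each gene minus its mean over the arrays and grouped by role. Klkb1 and Serpind1 are low in both post-βgal arrays, Fgb and Fgg are high there, and F11, C8a and C8b are higher in the A20 arrays than in the βgal arrays.

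In βgal livers, the fibrinogen β and γ chains were higher after resection than before it, and plasma prekallikrein and heparin cofactor II were lower. Klkb1, the zymogen of plasma kallikrein, fell 5.11-fold, and Serpind1, a thrombin inhibitor activated by dermatan sulfate and heparin, fell 2.97-fold. In A20 livers, no gene of the list was called. Of the 39 genes, 2 were called higher and 2 lower in βgal livers, where 1.5% of all genes were called higher and 0.748% lower. In A20 livers 0 were called by limma, where 0.63% of all genes were called higher and 0.382% lower, and 7 of the 39 (17.9%) had an unadjusted p under 0.05, close to the 15.4% of all genes. In βgal livers 16 of the 39 (41.0%) did, against 22.2% of all genes. The median log2 fold change of the 39 genes was -0.07 in A20 livers, against 0.02 for all genes, and -0.26 in βgal livers, against -0.05 for all genes. In βgal livers 30 of the 39 were lower after resection than before and 9 higher, and in A20 livers 22 were lower and 17 higher. Averaged over both transgenes, and with the arrays unpaired, 2 were called higher (Fgb and Fgg) and 1 lower (Klkb1), where 2.83% of all genes were called higher and 1.93% lower, and the median was -0.14 against -0.01 for all genes. On that average 18 of the 39 (46.2%) had an unadjusted p under 0.05, against 20.9% of all genes.

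**Figure D2:**
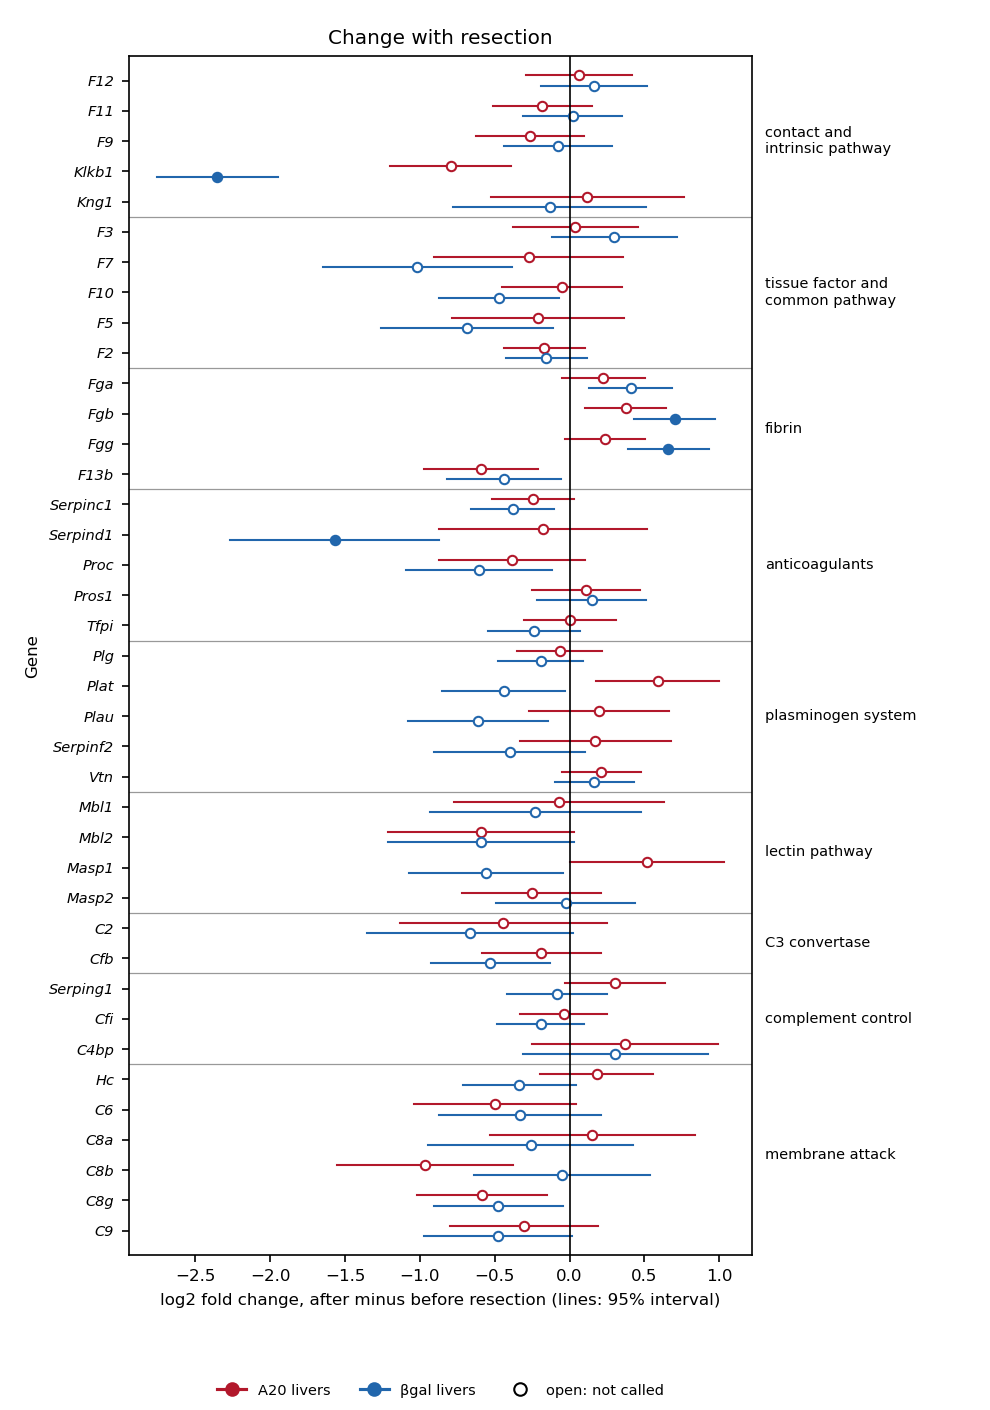
Log2 fold change with resection of each gene (points) with its 95% interval (lines), in A20 livers (red) and βgal livers (blue), filled where called. Klkb1 (-2.35) and Serpind1 (-1.57) stand apart to the left in βgal livers, and Fgb (0.70) and Fgg (0.66) are called to the right.

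The 3 fibrinogen chains, which are assembled into 1 hexameric plasma protein, were all higher after resection with both transgenes. Fgb had signals of 14761 and 16311 in post-A20 livers against 12346 and 11579.5 in pre-A20 livers, and of 18281 and 18224 in post-βgal livers against 10562 and 11881 in pre-βgal livers. Both post arrays were above both pre arrays with either transgene, and the groups did not overlap. The log2 fold change of Fgb was 0.70 (SE 0.12, adjusted p = 0.0315) in βgal livers and 0.38 in A20 livers (adjusted p = 0.18, not called), and averaged over the transgenes it was 0.54 (SE 0.08, adjusted p = 0.0132). Fgg had signals of 13015 and 14129 in post-A20 livers against 11477 and 11548 in pre-A20 livers, and of 15678 and 15637 in post-βgal livers against 9291 and 10547 in pre-βgal livers. Here too the post and pre arrays did not overlap. Its log2 fold change was 0.66 (SE 0.12, adjusted p = 0.0376) in βgal livers, 0.24 in A20 livers (not called) and 0.45 on average (adjusted p = 0.0242). Fga, the α chain, was not called, at 0.23 in A20 livers, 0.41 in βgal livers and 0.32 on average (adjusted p = 0.083), with signals of 12530.2 and 13861 in post-A20, 12070.5 and 10523 in pre-A20, 14643 and 14602 in post-βgal and 11040.3 and 10974 in pre-βgal livers. The highest signal in the whole table was 20936, so these transcripts lay near the top of its range. F13b, the carrier subunit of the fibrin-crosslinking factor XIII, had negative values, at -0.59 in A20 livers, -0.44 in βgal livers and -0.51 on average (adjusted p = 0.0502, not called). Each of the fibrinogen calls was sensitive to single arrays. In βgal livers both calls were lost without any 1 array except pre-βgal replicate 2 (adjusted p 0.0618 to 0.181 for Fgb and 0.0675 to 0.198 for Fgg), and without both βgal replicate 1 arrays (0.62 at adjusted p = 0.188 for Fgb and 0.57 at 0.206 for Fgg), and quantile normalization ended that of Fgg (0.60, adjusted p = 0.0558). On average over the transgenes, the call of Fgb was lost without either post-βgal array, post-A20 replicate 2 or pre-A20 replicate 2 (adjusted p 0.0566 to 0.0773), and that of Fgg without any 1 of the post-A20, pre-A20 or post-βgal arrays (0.0683 to 0.125).

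The promoters of the fibrinogen genes are printed here because the chains were higher together and the genes lie side by side on chromosome 3, with Fga directly beside Fgb and beside Fgg among protein-coding genes. The 2 contact phase neighbours Klkb1 and F11 on chromosome 8 follow, because they lie directly beside each other and only Klkb1 was called with resection, as described next. Sequences are from RefSeq on GRCm38.p6, 250 bases before to 50 bases after each gene's start, written 5′ to 3′ along the gene. Capitals mark matches, on either strand, to CTGGGA (the interleukin-6 response element of fibrinogen genes), TTCNNNGAA (the STAT palindrome), TTGCNNAA (the C/EBP core) and GTTAAT (an HNF1 half-site), and no marked matches overlap.
Fga, chr3:83025903-83026202, plus strand: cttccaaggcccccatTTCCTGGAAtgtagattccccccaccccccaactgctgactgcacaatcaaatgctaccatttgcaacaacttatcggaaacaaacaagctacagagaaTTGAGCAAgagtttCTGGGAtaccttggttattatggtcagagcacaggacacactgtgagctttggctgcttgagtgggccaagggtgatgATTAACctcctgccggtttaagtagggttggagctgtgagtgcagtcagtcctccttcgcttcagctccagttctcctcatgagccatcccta
Fgb, chr3:83049814-83050113, minus strand: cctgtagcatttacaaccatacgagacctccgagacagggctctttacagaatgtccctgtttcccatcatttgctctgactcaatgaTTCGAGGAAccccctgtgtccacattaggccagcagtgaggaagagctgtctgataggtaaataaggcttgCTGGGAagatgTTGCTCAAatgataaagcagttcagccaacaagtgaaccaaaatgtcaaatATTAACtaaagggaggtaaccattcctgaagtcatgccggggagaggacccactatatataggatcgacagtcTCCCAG
Fgg, chr3:83007474-83007773, plus strand: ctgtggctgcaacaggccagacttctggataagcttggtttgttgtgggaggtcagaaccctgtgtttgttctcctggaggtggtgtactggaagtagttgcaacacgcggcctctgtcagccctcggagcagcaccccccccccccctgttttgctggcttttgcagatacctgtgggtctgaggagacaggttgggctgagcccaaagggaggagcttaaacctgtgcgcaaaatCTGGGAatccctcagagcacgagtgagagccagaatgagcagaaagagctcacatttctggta
Klkb1, chr8:45294786-45295085, minus strand: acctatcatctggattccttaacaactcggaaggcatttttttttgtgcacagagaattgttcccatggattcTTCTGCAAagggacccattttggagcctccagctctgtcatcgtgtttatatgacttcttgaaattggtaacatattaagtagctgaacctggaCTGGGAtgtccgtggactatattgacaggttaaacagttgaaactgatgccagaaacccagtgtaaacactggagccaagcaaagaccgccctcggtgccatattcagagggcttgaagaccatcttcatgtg
F11, chr8:45261982-45262281, minus strand: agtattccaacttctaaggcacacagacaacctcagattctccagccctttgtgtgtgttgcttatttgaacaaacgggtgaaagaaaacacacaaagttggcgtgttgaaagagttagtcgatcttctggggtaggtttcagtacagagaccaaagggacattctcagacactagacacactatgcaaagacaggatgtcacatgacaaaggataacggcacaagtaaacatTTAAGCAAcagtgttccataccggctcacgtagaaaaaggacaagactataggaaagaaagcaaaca
Fga and Fgb held all 4 motifs, Fgg only CTGGGA, Klkb1 CTGGGA and TTGCNNAA, and F11 only TTGCNNAA. Of the 29 genes of the list with a promoter in the table, CTGGGA was found in 16 (55.2%, against 31.8% of all 32851 promoters), TTCNNNGAA in 7 (24.1%, against 8.30%), TTGCNNAA in 7 (24.1%, against 10.8%) and GTTAAT in 9 (31.0%, against 7.10%). A listed gene was counted if any of its promoters matched, while the shares of all promoters count each promoter singly. A match describes the letters only.

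Among the contact phase genes, Klkb1 was the one called with resection. Its signals were 1993 and 1627 in post-A20 livers against 3353 and 2933 in pre-A20 livers, and 523 and 481 in post-βgal livers against 2538 and 2725 in pre-βgal livers. The post arrays were below the pre arrays with both transgenes, and the post-βgal arrays were far below every other array. The log2 fold change with resection was -2.35 in βgal livers (95% interval -2.76 to -1.95, adjusted p = 0.00228), -0.79 in A20 livers (-1.20 to -0.39, adjusted p = 0.086, not called) and -1.57 on average (adjusted p = 0.00141). The calls in βgal livers and on average held without any 1 array, without both βgal replicate 1 arrays (-2.46, adjusted p = 0.013 in βgal livers) and with the β-actin ratio as a covariate (-2.36, adjusted p = 0.000292 in βgal livers), and the call in βgal livers was lost in a fit on only the 4 βgal arrays (-2.35, adjusted p = 0.0598). The change in A20 livers passed with the β-actin ratio as a covariate (-0.80, adjusted p = 0.0237) and without a variance trend (adjusted p = 0.044). Those fits called 1052 and 263 of all genes for resection in A20 livers, where the main fit called 180. F11, the factor XI that activates factor IX, lies directly beside Klkb1, and had signals of 1041 and 1016 in post-A20 against 1132 and 1209 in pre-A20 livers, and 694 and 695 in post-βgal against 691 and 676 in pre-βgal livers (log2 fold changes of -0.18, 95% interval -0.51 to 0.15, and 0.02, -0.31 to 0.35, neither called). The difference between these 2 genes was not tested. The other contact and intrinsic genes, F12, F9 and Kng1, lay between -0.27 and 0.16 with resection in either transgene, with none called. Kng1, kininogen, the cofactor that carries prekallikrein and releases bradykinin, is the one with the highest signal: 7636 and 8183 in post-A20, 6691 and 7911 in pre-A20, 8151 and 5788 in post-βgal and 10004 and 5664 in pre-βgal livers. The βgal replicates of Kng1 were far apart, and those groups overlapped.

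**Figure D3:**
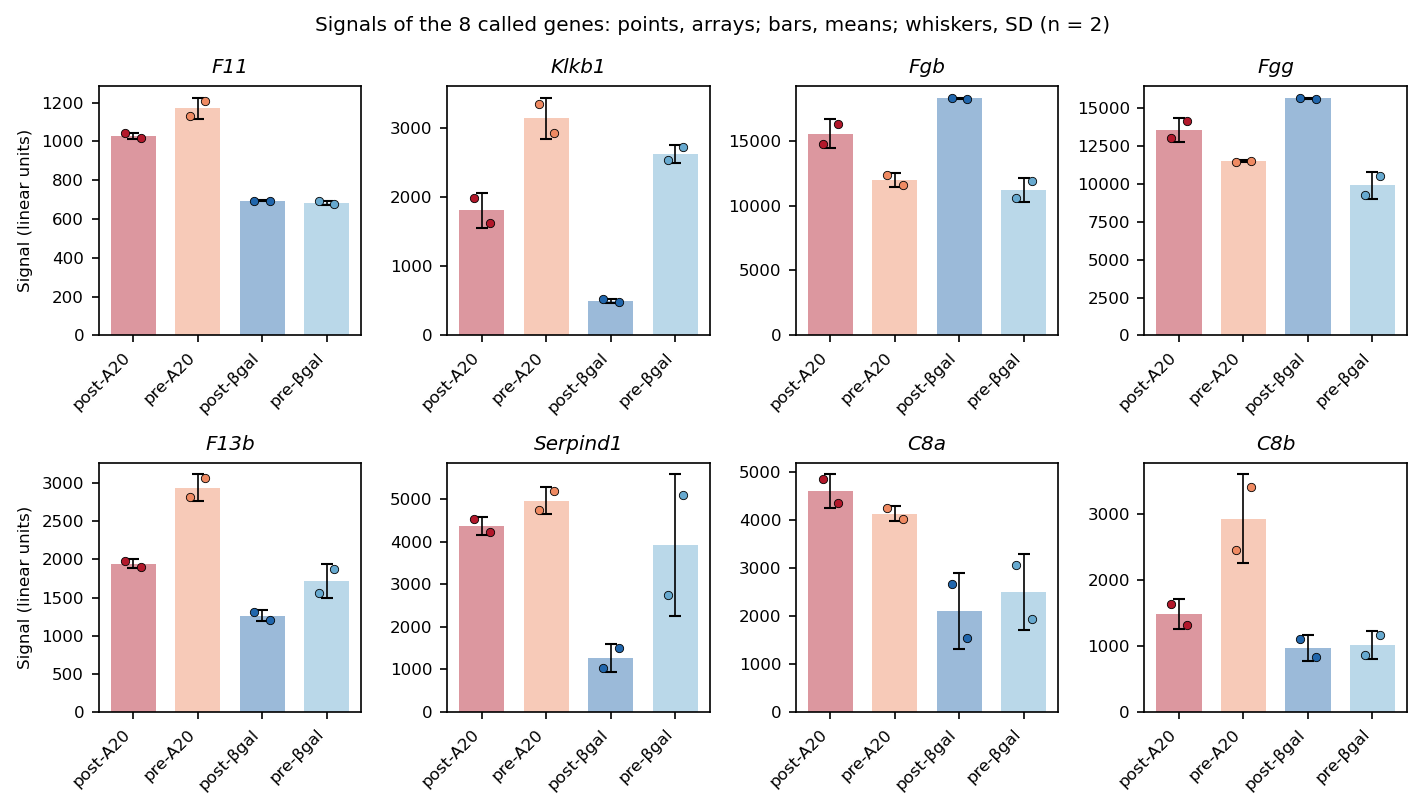
Signal in linear units of the 8 genes called in at least 1 comparison, by group (points: arrays, bars: means, whiskers: SD, n = 2 pools). For Klkb1, 523 and 481 in post-βgal livers lie below every other array, and for F11 the A20 arrays lie above all βgal arrays.

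Serpind1 was the called gene among the anticoagulants. Its signals were 4526 and 4225 in post-A20 livers against 4736 and 5182 in pre-A20 livers, and 1035 and 1504 in post-βgal livers against 2738 and 5093 in pre-βgal livers. The pre-βgal replicates differed widely, but both were above both post-βgal arrays. In each βgal group the lower value was in replicate 1, the array with the raised 3′ to 5′ ratio. The log2 fold change was -1.57 in βgal livers (95% interval -2.27 to -0.87, adjusted p = 0.0454) and -0.18 in A20 livers (adjusted p = 0.83). Without pre-βgal replicate 2 the value in βgal livers was -1.12, and without replicate 1 of that group it was -2.02, still called in both cases. The call was lost without any 1 of the post-A20, pre-A20 or post-βgal arrays (adjusted p 0.0832 to 0.234), with quantile normalization (-1.61, adjusted p = 0.0577) and in a fit on all probe sets (adjusted p = 0.0524), and held without both βgal replicate 1 arrays (-1.75, adjusted p = 0.0214). The part of RNA integrity in the spread of Serpind1 was not tested beyond these values. The other inhibitors were not called in either transgene. Serpinc1, antithrombin, had signals of 7239.6 and 7853 in post-A20 against 8952 and 8909 in pre-A20 livers, and of 6533 and 6785 in post-βgal against 8602 and 8730.3 in pre-βgal livers. The post arrays of Serpinc1 were below the pre arrays throughout, and its average was -0.31 (adjusted p = 0.0857). Proc, the zymogen of activated protein C, averaged -0.49 (adjusted p = 0.11), while its cofactor Pros1 was at 0.13 and Tfpi, which blocks factor VIIa with factor Xa, at -0.12.

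No gene of the tissue factor and common pathway was called with resection. In βgal livers F7, the protease that tissue factor binds, was at -1.02 (adjusted p = 0.097), F5 at -0.68, F10 at -0.47 and F2 at -0.15, and F3, tissue factor itself, was at 0.30. In A20 livers the 5 genes lay between -0.27 and 0.04. F2, prothrombin, had the highest signal and the closest values: 8767 and 8861 in post-A20, 10347 and 9475 in pre-A20, 9144 and 8508 in post-βgal and 9753 and 9889 in pre-βgal livers. Of the plasminogen system, 0 of 5 were called in either transgene. Plat, tissue plasminogen activator, was higher after resection in both A20 arrays (1128 and 902 against 708 and 625) and lower in both βgal arrays (829.9 and 877 against 1085 and 1248), with log2 fold changes of 0.59 and -0.44. Vtn, which stabilizes the plasminogen activator inhibitor and also binds terminal complement, had signals of 11739 and 12086 in post-A20 against 10668 and 9890.2 in pre-A20 livers, and of 11189.6 and 11521 in post-βgal against 9734 and 10525 in pre-βgal livers. The post arrays of Vtn were the higher ones in each case, by 0.19 on average (adjusted p = 0.233).

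No complement gene was called with resection in the unpaired fit, 0 of 15 by limma in either transgene or on average. All 6 genes of the membrane attack complex had negative averages, with a median of -0.40, from -0.05 for C8a to -0.53 for C8g (adjusted p = 0.068), and both genes of the C3 convertases were negative, C2 at -0.55 and Cfb at -0.36. C8g, the lipocalin subunit of C8, had signals of 5922 and 5331 in post-A20 against 7809.9 and 9121 in pre-A20 livers, and of 6097 and 4616 in post-βgal against 8169 and 6666 in pre-βgal livers. Its post arrays lay below its pre arrays with each transgene. Cfb, the protease of the alternative pathway, had 4739 and 4091 in post-A20 against 5113 and 4933 in pre-A20 livers, and 3578 and 4724 in post-βgal against 5886 and 5996 in pre-βgal livers, again with no overlap. Mbl2, a mannose-binding lectin that recognizes microbial sugars, had 6244 and 3422 in post-A20 against 7166 and 6775 in pre-A20 livers, and 5292 and 4988 in post-βgal against 8742 and 6884 in pre-βgal livers. The post-A20 replicates of Mbl2 differed by 0.86 on the log2 scale, more than those of any other gene of the list in that group, and its average of -0.59 was not called (adjusted p = 0.134). The regulators Serping1, Cfi and C4bp averaged between -0.12 and 0.34. Cfi, which cleaves C3b and C4b, had 7645 and 6895 in post-A20 against 7589 and 7343 in pre-A20 livers, and 6071 and 6086 in post-βgal against 7086 and 6817 in pre-βgal livers, so that post and pre overlapped in A20 livers only.

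A20 livers had higher levels of several of these genes than βgal livers. Before resection, C8b, a subunit of the membrane attack complex, was 2.86-fold and F11 1.69-fold higher in pre-A20 than in pre-βgal livers. After resection, Klkb1 was 3.51-fold higher in post-A20 than in post-βgal livers, and averaged over both times F11, Klkb1, F13b, Serpind1, C8a and C8b were higher. Before resection 2 of the 39 were called higher and 0 lower by limma, where 0.714% of all genes were called higher and 1.78% lower, and 9 of the 39 (23.1%) had an unadjusted p under 0.05, close to the 21.8% of all genes. After resection 1 was called higher and 0 lower, where 0.0956% of all genes were called higher and 0.236% lower, and 14 (35.9%) had an unadjusted p under 0.05, against 19.6% of all genes. Averaged over resection 6 were called higher and 0 lower, where 2.08% of all genes were called higher and 3.31% lower. On that average 13 of the 39 (33.3%) had an unadjusted p under 0.05, against 26.2% of all genes. The median log2 difference of the 39 genes was 0.09 before resection (all genes -0.03), 0.25 after (all genes 0.03) and 0.17 on average (all genes -0.001). Of the 39, 27 were higher in A20 livers before resection and 31 after it.

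**Figure D4:**
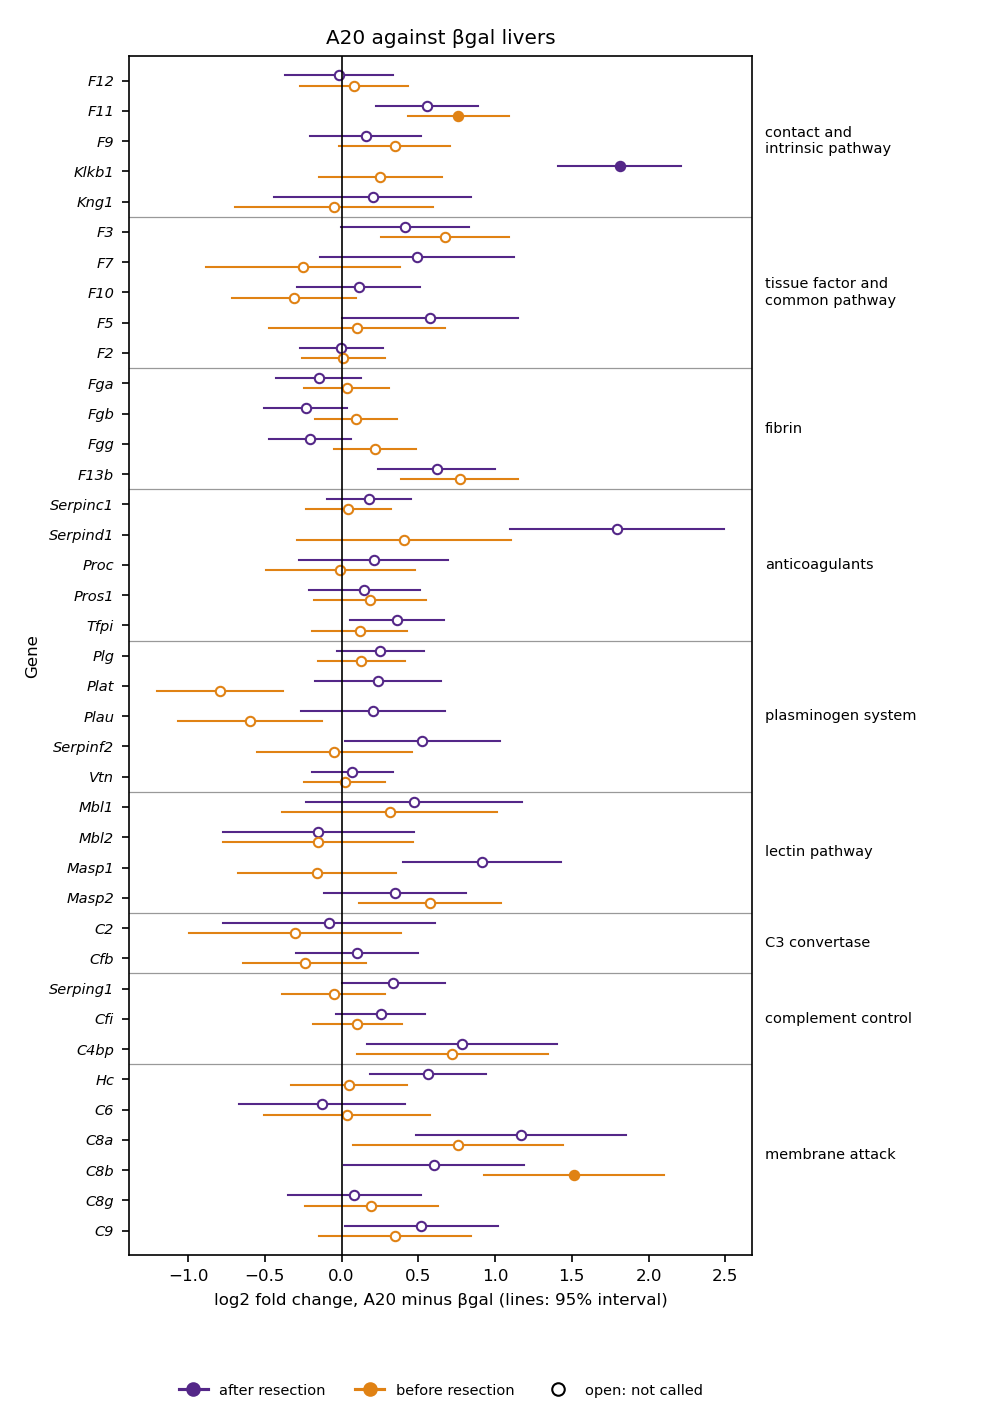
Log2 fold change of A20 against βgal livers for each gene (points) with its 95% interval (lines), after (purple) and before (orange) resection, filled where called. Klkb1 (1.81) is called after resection, and C8b (1.51) and F11 (0.76) before it.

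Klkb1 was called between the transgenes after resection and not before it. The A20 against βgal log2 fold change was 1.81 after resection (SE 0.17, 95% interval 1.41 to 2.21, adjusted p = 0.0141) and 0.25 before it (-0.15 to 0.65, not called). Serpind1 had a difference of similar size after resection, 1.80 (95% interval 1.10 to 2.49), which missed the threshold (adjusted p = 0.0625), and one of 0.41 before it. With the β-actin ratio as a covariate Serpind1 was called after resection (1.52, adjusted p = 0.004), as it was in a fit on only the 4 arrays compared (adjusted p = 0.0282). Those fits called 682 and 278 of all genes after resection, where the main fit called 59. Without both βgal replicate 1 arrays, which leaves 1 array in each βgal group, the difference was 1.53. With other filters, another offset, quantile normalization, no variance trend or all probe sets, Klkb1 was the only listed gene called after resection. The call of Klkb1 after resection was lost without any 1 of the 4 arrays compared, at 1.67 to 1.96 with adjusted p 0.0815 to 0.134. Averaged over resection the differences were 1.03 for Klkb1 (adjusted p = 0.0153) and 1.10 for Serpind1 (adjusted p = 0.0335). These 2 calls were lost without either post-A20 array, either post-βgal array or pre-A20 replicate 2 (adjusted p 0.0518 to 0.0619 for Klkb1 and 0.075 to 0.121 for Serpind1), and that of Serpind1 also without pre-A20 replicate 1 (1.13, adjusted p = 0.0854).

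F11 was higher on the A20 arrays at both times. Both post-A20 arrays (1041 and 1016) were above both post-βgal arrays (694 and 695), and both pre-A20 arrays (1132 and 1209) above both pre-βgal arrays (691 and 676). The log2 difference was 0.56 after resection (adjusted p = 0.12, not called), 0.76 before it (SE 0.14, adjusted p = 0.0456) and 0.66 on average (adjusted p = 0.0203). F13b showed the same order, with 1986 and 1904 in post-A20 against 1312 and 1211 in post-βgal livers, and 2814 and 3065 in pre-A20 against 1564 and 1880.2 in pre-βgal livers. It was called on average only (0.69, adjusted p = 0.0247), with 0.77 before resection at an adjusted p of 0.056. The calls of F11 and F13b on average were lost without any 1 of the post-A20, pre-A20 or post-βgal arrays (adjusted p 0.0555 to 0.0889 for F11 and 0.0632 to 0.101 for F13b) and without both βgal replicate 1 arrays (0.67 at adjusted p = 0.0517 for F11 and 0.66 at 0.0559 for F13b). That of F11 before resection was lost without any 1 array except pre-βgal replicate 2 (adjusted p 0.0812 to 0.28) and without both βgal replicate 1 arrays (0.78, adjusted p = 0.117).

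C8a and C8b, the α and β chains of the C8 component of the membrane attack complex and direct neighbours on chromosome 4, were both higher in A20 livers. C8a had 4836 and 4335 in post-A20 against 2658 and 1546 in post-βgal livers, and 4232 and 4008 in pre-A20 against 3051 and 1932 in pre-βgal livers. C8b had 1639 and 1317 in post-A20 against 1111 and 832 in post-βgal livers, and 2446 and 3398 in pre-A20 against 859 and 1161 in pre-βgal livers. For both genes all A20 arrays were above all βgal arrays, and C8b was higher in pre-A20 than in post-A20 livers. The average differences were 0.96 for C8a (adjusted p = 0.0439) and 1.06 for C8b (adjusted p = 0.0251), and C8b was called before resection (1.51, 95% interval 0.93 to 2.10, adjusted p = 0.0365). Both average calls were lost without any 1 of the post-A20, pre-A20 or post-βgal arrays (adjusted p 0.0575 to 0.135 for C8a and 0.0528 to 0.101 for C8b), and the call of C8b before resection without any 1 array except pre-βgal replicate 2 (1.28 to 1.75, adjusted p 0.061 to 0.259) and without both βgal replicate 1 arrays (1.30, adjusted p = 0.088). C8g, the remaining chain of C8, was at 0.14 on average (not called), and the other terminal components Hc (complement C5), C9 and C6 were at 0.31, 0.43 and -0.05.

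The remaining genes of the list were not called between A20 and βgal livers. C4bp, which inhibits the classical and lectin C3 convertase, was at 0.75 on average (adjusted p = 0.0607) and F3 at 0.54 (adjusted p = 0.0512), F3 at signals of 33.9 to 91.9 over the 8 arrays. The fibrinogen chains lay between -0.07 and 0.01 on average, and F2, Vtn and Serpinc1 between 0.01 and 0.11. Plat was the gene farthest below 0, at -0.28 on average and -0.79 before resection (adjusted p = 0.062). Results for 10 genes could be read on 17 other probe sets. Their call differed in the average over resection only, where another probe set of F5 was called (0.77, adjusted p = 0.0228, against 0.34, adjusted p = 0.268, for the one used), as was another of Kng1 (0.54, adjusted p = 0.0448, against 0.08, adjusted p = 0.834). The sign differed in at least 1 comparison for C2, F10, Kng1, Masp1, Masp2, Plat, Plau and Tfpi. For Masp1, a protease of the lectin pathway whose gene has several transcripts, A20 against βgal livers after resection gave 0.92 on the probe set used (adjusted p = 0.12) and -0.17 on another.

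Whether the change with resection differed between A20 and βgal livers was tested by the interaction. By limma 0 of the 39 passed, as did 0% of all genes, with 7 of the 39 (17.9%) at an unadjusted p under 0.05, close to the 15.7% of all genes. The median was 0.15 against 0.05 for all genes. Klkb1 had the highest estimate, 1.56 (95% interval 0.99 to 2.13, adjusted p = 0.212), and Serpind1 followed at 1.39 (0.41 to 2.37, adjusted p = 0.233). By these estimates, neither of them called, both were less reduced after resection in A20 than in βgal livers. With the β-actin ratio as a covariate both were called (Klkb1 1.56 at adjusted p = 0.0376 and Serpind1 1.47 at 0.0307). That fit called 125 of all 17790 genes for the interaction, where the main fit called 0. The fibrinogen chains had negative estimates, from -0.18 for Fga to -0.42 for Fgg (adjusted p = 0.289), and C8b had the lowest at -0.91 (adjusted p = 0.293).

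Coagulation and complement genes outside the list were read from a second list of 51 genes, of which 41 were tested. With resection averaged over the transgenes 4 were called higher and 6 lower, where 2.83% of all genes were called higher and 1.93% lower. Thbd, thrombomodulin, the endothelial receptor that turns thrombin toward protein C activation, had signals of 117 and 318 in post-A20 against 54.4 and 51.6 in pre-A20 livers, and of 648 and 537 in post-βgal against 54.6 and 46.0 in pre-βgal livers. It rose by 2.40 on average (adjusted p = 0.00395), with 1.61 in A20 livers (adjusted p = 0.0879, not called) and 3.20 in βgal livers (adjusted p = 0.011). Anxa2, a cell surface receptor for plasminogen and its activator, rose by 1.19 (adjusted p = 0.00454), with 1404 and 1511 in post-A20 against 479 and 600.5 in pre-A20 livers, and 1686 and 1640.5 in post-βgal against 949.7 and 759 in pre-βgal livers. Colec11, a collectin of the lectin pathway, fell by 1.26 (adjusted p = 0.00428), with 309 and 313 in post-A20 against 671 and 804 in pre-A20 livers, and 244 and 179.5 in post-βgal against 613 and 486 in pre-βgal livers. For these 3 genes the post and pre arrays did not overlap with either transgene. Between A20 and βgal livers on average 2 were called higher and 3 lower, where 2.08% of all genes were called higher and 3.31% lower. At either single time 0 were called by limma, and 11 (26.8%) after and 15 (36.6%) before resection had an unadjusted p under 0.05, against 19.6% and 21.8% of all genes. Proz, protein Z, a cofactor in the inhibition of factor Xa, was higher by 0.76 (adjusted p = 0.0469), with 1236 and 1577 in post-A20 against 651 and 591 in post-βgal livers and 1779.7 and 1738 in pre-A20 against 1709 and 1072 in pre-βgal livers. Itgb2, the β2 integrin chain of leukocytes and of complement receptor 3, fell by 0.78 (adjusted p = 0.038), with 404 and 258 in post-A20 against 495 and 653 in post-βgal livers and 207 and 216 in pre-A20 against 345 and 401 in pre-βgal livers. F13a1, the catalytic subunit of factor XIII, which macrophages and platelets make, fell by 0.62 (adjusted p = 0.0246), with 133 and 126 in post-A20 against 208 and 289 in post-βgal livers and 94.7 and 107 in pre-A20 against 139 and 134 in pre-βgal livers.

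Among the neutrophil markers, S100a8 (-2.16), S100a9 (-2.58) and Csf3r (-0.38) were called lower in A20 livers on average beside these differences, while the granule genes Mpo (-0.08) and Elane (0.07) were not called. The summed signal of the 5 markers tested of 6 listed was 1501 to 1710.2 in post-A20 against 4253 to 4889.7 in post-βgal livers, and 1106 to 1202 in pre-A20 against 2234 to 3094 in pre-βgal livers, with most of the difference in S100a8 and S100a9. The 5 platelet markers summed to 1237 to 1359 in post-A20 against 1818 to 1824 in post-βgal livers, and to 1333 to 1338 in pre-A20 against 1589 to 1618 in pre-βgal livers. Of these, Pf4 was called lower after resection (-1.26) and on average (-0.77), and 0 were called before resection. The 6 Kupffer cell and macrophage markers summed to 5118 to 5516 in post-A20 against 4035 to 5070.5 in post-βgal livers, and to 3375 to 3579.7 in pre-A20 against 5658 to 6236 in pre-βgal livers. After resection all 6 were higher in A20 than in βgal livers, with 0 called. Before it 5 were lower and Marco was higher, with Csf1r called lower (-0.93, adjusted p = 0.0481). On average 5 were lower and Marco was called higher (0.46, adjusted p = 0.0469). Of the 6 sinusoidal endothelial markers, 2 were higher and 4 lower with resection on average. Lyve1 was called higher (1.61, adjusted p = 0.00223) and Kdr lower (-0.90, adjusted p = 0.0155). Between A20 and βgal livers on average Lyve1 was called lower (-0.69, adjusted p = 0.0392), while 5 were higher. The part of these cells in the values of Itgb2, F13a1, Plat and Thbd was not tested.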

How the data were processed

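Total RNA of mouse liver was hybridized to 8 Affymetrix arrays, each with a pool of 3 animals. The authors deposited 1 table of normalized intensity values per probe set on a linear scale. The submitters' processing notes name MAS5 and the methods name dChip, and the sources used here do not say which of them made it. The table was used with no further scaling, with array medians of 153 to 166. Of 45101 probe sets, 34945 carried 1 gene symbol, 932 several and 9160 none, and 64 were controls. Probe sets with a group mean of at least 40 were kept (42703), and each of the 17790 genes was read through its single-symbol probe set with the highest mean. All 39 genes of the list passed.

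Values were tested as log2(intensity + 16) in R 4.3.3 with limma 3.58.1, 1 mean per group, with a variance trend, 4 residual and 3.73 prior degrees of freedom, 2-sided, in 7 comparisons: resection within each transgene, A20 against βgal before and after resection, both averages, and their interaction. Variances were moderated over all probe sets kept. Moderation over the genes alone was also run, and the choice between them was made after both results had been seen. Checks on simulated data preceded the fits. Replicate numbers were not used to pair arrays.

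The genes, role groups and marker lists were chosen with earlier results of these data known. Array values are given for genes called in any comparison and for the highest-signal gene of each role group, and, from the second list, for the called genes with the 3 largest changes in each average. Another filter, offset, scaling, variance model, probe set rule, block, covariate and set of arrays were tried. Symbols came from the array annotation, neighbours from the RefSeq annotation and sequences from RefSeq promoters, in which 29 of the 39 genes matched.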

Additional observations from a re-analysis of the deposited data

Results flagged for a closer look

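For 5 genes, every array of 1 contrast moved one way and every array of the matching contrast the opposite way, as a count of array orders without a test. The difference between the contrasts was tested by limma's interaction and was not called for any of them. Plat was higher after resection than before it in A20 livers and lower in βgal livers, and was also higher after and lower before resection in A20 than in βgal livers, with a difference of 1.03 on the log2 scale in either view (adjusted p = 0.212). On the other probe set of Plat the A20 arrays after and before resection overlapped, as did the A20 and βgal arrays after it. Masp1 was higher after resection in A20 livers and lower in βgal livers, with a difference of 1.08 (adjusted p = 0.226), and none of its other probe sets gave that order. F11 was lower after resection than before it in A20 livers and higher in βgal livers, with a difference of -0.21 (adjusted p = 0.643). Its βgal arrays were nearly equal, at 694 and 695 after against 691 and 676 before resection. F10 was higher in A20 than in βgal livers after resection and lower before it, with a difference of 0.42 (adjusted p = 0.425), and on its 2 other probe sets the arrays before resection overlapped. Fgg was lower in A20 than in βgal livers after resection and higher before it, with a difference of -0.42 (adjusted p = 0.289). How many such orders 2 arrays per group give without any difference was not estimated. The share of all genes with such orders was not counted, so these orders are not a trait of the listed genes.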

How the results depend on the processing

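Counts are of the 39 genes called, with the main count of each comparison in brackets. The number called over all genes also moved with the setting and with the array removed. Removing each array in turn gave 0 to 0 for resection in A20 livers (0), 1 to 5 for resection in βgal livers (4), 0 to 6 for A20 against βgal before resection (2), 0 to 2 after it (1), 1 to 6 for resection on average (3), 0 to 10 for A20 on average (6) and 0 to 0 for the interaction (0), and a group left with 1 array was assumed to vary like the others. With the β-actin ratio as a covariate the counts were 4, 7, 5, 4 and 10 for the first 5 comparisons and 2 for the interaction. Over all genes that fit called 1052, 2362, 1094, 682, 2257 and 125, in place of 180, 400, 444, 59, 846 and 0. Without both βgal replicate 1 arrays they were 2 for resection in βgal livers, 0 for A20 against βgal before resection and 3 after it. Fits on only the 4 arrays compared gave 0 for both resection in βgal livers and A20 before resection, and 2 after it. Those fits called 8, 1 and 278 of all genes. Quantile normalization gave 2 for resection in βgal livers. No variance trend gave 1 for resection in A20 livers, 4 for A20 before resection and 5 for resection on average, with 263, 572 and 1060 of all genes. Moderation over the genes only, an alternative chosen after seeing the data, gave 4 for A20 before resection, 2 after it and 6 for resection on average, while over all genes it called 358, 710, 823, 252, 1092, 1528 and 5 in place of 180, 400, 444, 59, 846, 959 and 0 (order of comparisons as above). Same-numbered arrays of pre-βgal and post-βgal deviated together (r = 0.617) and those of pre-A20 and post-A20 did not (r = -0.02). Replicate 1 was also the array with the raised β-actin ratio in both βgal groups (6.997 in pre-βgal and 3.64 in post-βgal livers). The part of RNA integrity in this correlation was not tested. Pools before and after resection may share mice, but no source used here says which, so the numbers were not taken as pairs. The replicate block gave 0, 4, 3, 2, 4, 8 and 0, with Serpind1 called higher in A20 than in βgal livers after resection (adjusted p = 0.0437). Over all genes it called 195, 514, 527, 86, 862, 1242 and 0. The replicate block within transgene gave 1 for resection in A20 livers (Klkb1, adjusted p = 0.0386), 6 in βgal livers (2 higher and 4 lower, with F7 and Proc added) and 9 for resection on average (2 higher and 7 lower, the complement genes C8g and Mbl2 among the lower). Over all genes this block within transgene called 686, 1585 and 1705, in place of 180, 400 and 846. Other filters and offsets moved no count by over 1.5 times. No called gene changed direction in any alternative run, and the cause of each shift in count was not tested. Klkb1 with resection was called on average in each alternative run, and in βgal livers in each except the fit on only the 4 arrays compared (adjusted p = 0.0598).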
